A study of Mus musculus with 3 samples.

Results

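The genes for the proteins of the cytosolic ribosome were followed across the cell types of mouse spleen. Members were the genes whose symbol is Rpl, Rps or Rplp followed by a number and at most 1 of the letters a, l, x or y, together with Rpsa. This rule took 80 of the 33696 genes counted, 49 of the large subunit and 31 of the small subunit. Single-cell RNA of spleen was counted as unique molecular identifiers (UMIs, 1 per captured RNA molecule) in 3 libraries with 1 library per group. The groups were Chow, MASH, and MASH with a phenylalanine-free treatment, called Phe-free here. The labels give the tissue and the group only, and diet, age, number of mice per library and tumour status of the spleen donors are not stated in the labels. The series text describes C3H mice kept on a high-fat diet and then on a methionine- and choline-deficient diet, or on a control diet, and inoculated under the skin with HCA-1 liver carcinoma cells. With 1 library per group, differences between libraries have no replicate check and were not tested.

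Every cytosolic ribosome holds 1 copy of nearly all ribosomal proteins, so cells that make ribosomes express these genes together and at high levels. Their messenger RNAs belong to the TOP class: they begin with a cytosine followed by a run of pyrimidines, which the LARP1 protein binds and through which the growth kinase mTORC1 controls their translation. A few members are paralogs with restricted expression, such as the muscle gene Rpl3l, the testis genes Rpl10l and Rpl39l, and Rps27l, which is induced by p53. Lymphocytes, red cell precursors and myeloid cells are known to differ in ribosome content, and defects of single ribosomal proteins such as Rps19, Rps26, Rpl5 and Rpl11 cause Diamond-Blackfan anaemia, a failure of red cell production.

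Start-site sequences are shown for the members on which the results below turn, since TOP messenger RNAs are defined there. Each line runs from 10 bases before to 20 bases from the annotated start, taken from RefSeq on build GRCm38.p6, with the longest run of C or T in capitals. The first set holds 5 members whose balance against the other members shifted widely between cell types, Rpl14, which stood high in erythroid-like cells, and Rpl11, which shifted least:
Rpl12 (chr2:32961702-32961731, + strand): agcaggatccgTCTTTTCggctttcggctc
Rps27 (chr3:90213629-90213658, - strand): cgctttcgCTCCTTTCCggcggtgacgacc
Rps9 (chr7:3704031-3704060, + strand): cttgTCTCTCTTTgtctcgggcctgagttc
Rps2 (chr17:24720053-24720082, + strand): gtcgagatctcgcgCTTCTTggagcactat
Rpl10 (chrX:74270806-74270835, + strand): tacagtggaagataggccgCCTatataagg
Rpl14 (chr9:120571507-120571536, + strand): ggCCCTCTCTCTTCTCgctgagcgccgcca
Rpl11 (chr4:136053374-136053403, - strand): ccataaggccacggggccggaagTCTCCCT

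The second set holds the paralogs for which RefSeq starts were found. Rps27l and Rpl3l have a second start each, which is not shown:
Rps27l (chr9:66946076-66946105, + strand): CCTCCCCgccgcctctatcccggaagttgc
Rpl3l (chr17:24727816-24727845, + strand): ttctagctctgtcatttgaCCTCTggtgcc
Rpl39l (chr16:10170218-10170247, + strand): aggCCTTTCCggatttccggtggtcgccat
Rpl10l (chr12:66284382-66284411, - strand): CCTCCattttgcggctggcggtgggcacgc

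Starts were found for 60 of the 80 members, in 72 entries. At least 7 C or T in a row lay in this window in 32 of the 60 members (53.3%) and in 20.5% of 27025 genes with an entry. The letters CGGAAG, on either strand of the 300 bases around the start, were present in 41 members (68.3%) and in 18.8% of all genes. Rpl12, Rps27, Rps9, Rpl14 and Rpl11 carry such a run, and so do Rps27l and Rpl39l, while the printed windows of Rps2, Rpl10, Rpl10l and Rpl3l hold shorter runs. The runs of Rps27l and Rpl39l end before the annotated start, and that of Rpl11 lies at the far end of the window. A run in the window is therefore not by itself a TOP start. It describes these letters near an annotated start and says nothing on the start used in these cells.

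The libraries held 138787602 (Chow), 152501471 (MASH) and 160115282 (Phe-free) UMIs, and members made up 17.1%, 17.1% and 16.2% of them. After filters and naming, 46951 cells fell in 10 classes, called B-like and so on because they were named from marker genes in clusters made without ribosomal protein genes. Pairs of libraries shared 72 to 102 barcodes. Signal of the B cell genes Cd79a, Cd79b and Ms4a1, at 0.775% to 3.60% of its B-like level in T-, NK-, dendritic-, monocyte-, macrophage-, neutrophil- and erythroid-like cells, measured RNA from B cells in other classes. It stood at 15.8% to 19.4% in plasma-like cells and at 48.3% to 63.6% in megakaryocyte-like cells, so the latter class was a mixture and is given for completeness only. A cluster of 538 cells, 503 of them from Chow, was led by the pancreatic enzyme genes Ctrb1, Try5 and Prss2, and 255 of these cells counted as B-like. The part of RNA from other cells in the results was not tested.

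T-like, erythroid-like and B-like cells gave the largest share of their UMIs to ribosomal protein genes, and neutrophil-like cells the smallest. T-like cells of Chow, MASH and Phe-free had shares of 23.5%, 23.4% and 23.5% (23.5% ± 0.0773, SD, n = 3 libraries). It was 22.7%, 18.1% and 22.0% in erythroid-like cells, the red cell precursors (20.9% ± 2.44). B-like cells had 19.96%, 20.6% and 21.5% (20.7% ± 0.757). These classes were followed by dendritic-like cells at 16.01%, 14.8% and 15.4% (15.4% ± 0.628), NK-like cells at 12.9%, 11.98% and 14.4% (13.1% ± 1.24) and monocyte-like cells at 12.3%, 11.5% and 13.6% (12.5% ± 1.03). The share was lower again in macrophage-like cells, at 9.28%, 9.38% and 8.55% (9.07% ± 0.454), in plasma-like cells at 5.72%, 4.88% and 6.20% (5.60% ± 0.668) and in neutrophil-like cells at 3.77%, 2.85% and 3.55% (3.39% ± 0.482). The SD is over libraries of different groups and so includes any group difference.

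In this order the libraries of neighbouring classes did not overlap between T-like and erythroid-like, B-like and dendritic-like, monocyte-like and macrophage-like, macrophage-like and plasma-like, and plasma-like and neutrophil-like cells. Erythroid-like and B-like cells overlapped, as did NK-like and monocyte-like cells. Megakaryocyte-like cells, at 13.5%, 17.1% and 15.1%, overlapped dendritic-like and NK-like cells. These shares sum the UMIs of all cells of a class. The median macrophage-like cell gave 10.98%, 10.74% and 9.92% in Chow, MASH and Phe-free, and the median monocyte-like cell 11.14%, 10.88% and 11.60%. Macrophage-like and monocyte-like libraries thus overlapped by the median cell, while the other pairs named as apart stayed apart. Immunoglobulin RNA filled most of the plasma-like transcriptome: without mitochondrial, haemoglobin and immunoglobulin UMIs in the total, the plasma-like share was 15.5%, 14.3% and 16.9%. Depth differed between classes too. The median cell held 1045 to 1162 UMIs in the macrophage-like and 4330 to 5276 in the neutrophil-like class, and 8250 to 9022 in the T-like and 18370 to 20156 in the plasma-like class. With macrophage-like cells parted evenly by depth, the shallowest gave 11.77%, 11.52% and 10.89% in Chow, MASH and Phe-free. The deepest gave 8.17%, 8.40% and 7.69%. The part of depth in the order was not tested.

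Large differences lay inside the classes. Naive T-like clusters (Ccr7, Lef1), cells that have not met antigen, gave 28.8%, 30.01% and 30.5% of UMIs to members in Chow, MASH and Phe-free. Memory or effector T-like clusters (S100a4, Cd44, Ccl5) gave 17.5%, 17.4% and 17.8%. The lowest naive library was thus above the highest memory library by over 10 percentage points, with median depths of 8777 to 9562 and 7572 to 8469 UMIs. The T-like cluster led by Foxp3 and Ikzf2, genes of regulatory T cells, had 15.4%, 15.6% and 15.7%. The cluster with Ccl5 and Nkg7, genes of cytotoxic cells, had 18.8%, 18.4% and 19.0%. Another memory or effector cluster had 19.4%, 19.3% and 19.9%, and the genes that led it among T-like cells included the B cell genes Cd79a and Ms4a1. Without it the memory or effector shares were 16.8%, 16.8% and 17.3%.

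**Figure D1:**
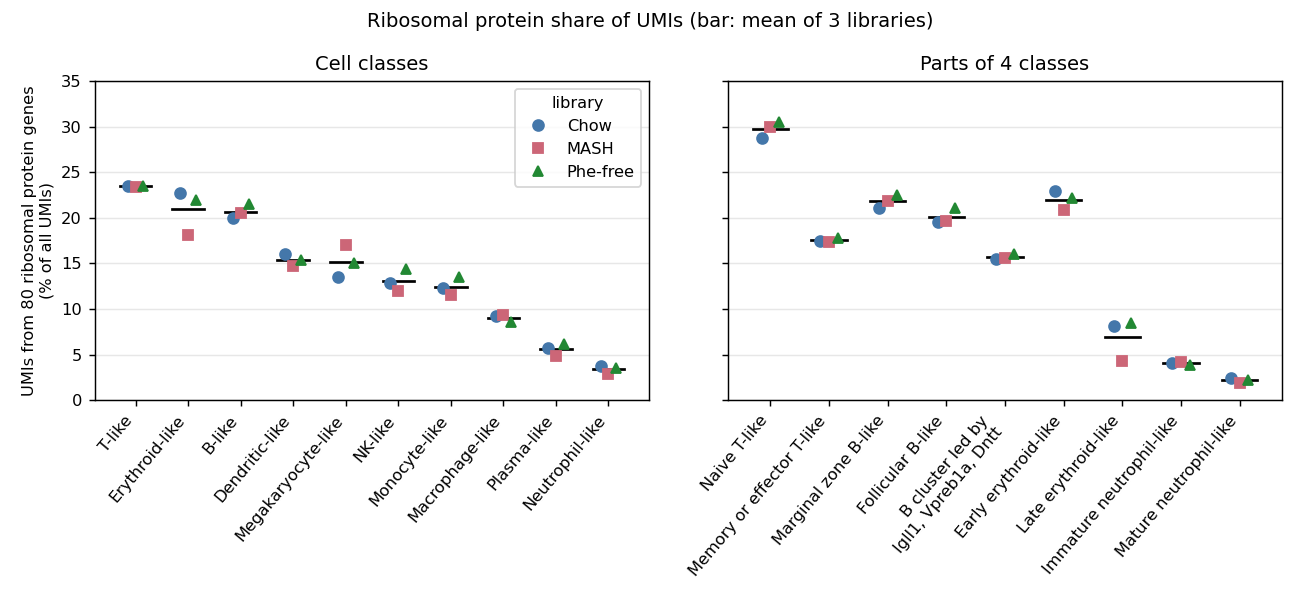
Share of all UMIs that came from the 80 ribosomal protein genes (vertical axes, percent), in the 10 cell classes (left) and in parts of 4 classes (right). Each point is 1 library and each bar the mean of 3 libraries: T-like cells sit at 23.4% to 23.5%, naive T-like cells at 28.8% to 30.5% and mature neutrophil-like cells at 1.90% to 2.45%.

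Member by member, 74 of the 77 tested were higher in the naive than in the memory T-like sums with no overlap between the libraries, against 13.6% of 3459 genes tested. The median member differed by 0.71 on the log2 scale, against -0.25 for the median gene. The small-subunit protein gene Rps20 stood at 7065, 7290 and 7570 UMIs per 1000000 UMIs of the sum (CPM) in naive and 3524, 3383 and 3523 CPM in memory cells. Rpl12, which forms the base of the ribosomal stalk, stood at 6491, 6356 and 6567 against 3284, 2985 and 3124 CPM. All naive libraries lay above all memory libraries for both genes. Rpl41, whose product is a very short peptide, and Rpl29 overlapped between the subsets: Rpl41 had 530, 592 and 614 CPM in naive and 540, 541 and 575 CPM in memory cells. Rps27l was the 1 member that was lower, at 67.0, 69.2 and 73.7 CPM in naive and 124, 139 and 147 CPM in memory cells, in a comparison where 59.5% of genes were lower. Without the cluster that Cd79a and Ms4a1 led, a choice made after seeing the data, 74 members were again higher and 1 lower, with a median of 0.76 log2.

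The main B-like subsets lay closer together. Marginal zone B-like clusters (Cr2, Cd9) gave 21.1%, 21.9% and 22.5% of UMIs to members and follicular B-like clusters (Fcer2a) 19.5%, 19.6% and 21.1%. Of 77 members, 33 were higher in the marginal zone sums without overlap and 0 lower, against 19.4% and 28.1% of 3495 genes, with a median difference of 0.10 log2. The stalk protein genes Rplp1 (5192, 5389 and 5696 against 3752, 3908 and 4324 CPM) and Rplp0 (3870, 3939 and 4400 against 3069, 3097 and 3598 CPM) stood farthest apart. The marginal zone sums hold a small cluster with shares of 33.8%, 32.1% and 33.5%, median depths of 3328 to 4218 UMIs and the nuclear RNA Malat1 at 0.0145% to 0.0185% of UMIs, against 0.869% to 0.907% in the whole class. Without it, a choice made after seeing the data, the marginal zone shares were 20.7%, 21.3% and 22.1% and overlapped the follicular ones. Then 21 of 77 members were higher and 0 lower, against 21.0% and 27.5% of 3510 genes. The median member differed by 0.08 log2, against -0.02 for the median gene. A further B-like cluster of low depth and low Malat1, in neither subset, had 32.4%, 31.5% and 33.9%. The part of depth and RNA quality in these shares was not tested. A B-like cluster led by Igll1, Vpreb1a and Dntt, genes of B cell precursors, had a share of 15.5%, 15.6% and 16.1%. In it 66 of 77 members were lower than in follicular B-like cells and 1 was higher, against 15.3% lower and 37.1% higher among 3659 genes. That 1 member was again Rps27l, at 93.0, 109 and 118 CPM against 74.8, 80.3 and 84.7 CPM.

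Among neutrophil-like cells the mature part had the lower share, and the difference rested largely on 1 early cluster. Immature neutrophil-like clusters (Camp, Ltf, Ngp), which still make granule proteins, gave 4.10%, 4.24% and 3.84% of UMIs to members, and mature ones (Il1b, Cxcr2, Csf3r) 2.45%, 1.90% and 2.28%. Within the immature part, the cluster with Camp and Elane had the highest share, at 6.27%, 7.56% and 5.79%. The cluster with Ltf and Camp had 3.09%, 2.28% and 2.41%, which overlapped the mature share. Of 75 members tested, 69 were higher in the immature sums and 2 lower, against 28.4% and 57.8% of 2675 genes, and the median member differed by 1.16 log2. Rpsa, a small-subunit protein also known as the laminin receptor precursor, stood at 976, 1067 and 961 CPM in immature and 212, 144 and 185 CPM in mature cells. Rpl32 stood at 643, 708 and 613 against 147, 111 and 154 CPM. Both groups of libraries were well separated for each gene. Without the cluster with Elane, a choice made after seeing the data, 38 of 74 members were higher and 6 lower, against 22.7% and 60.5% of 2587 genes, with a median of 0.52 log2.

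Rps9 and Rps27 were the 2 members that ran the other way, joined by Rpl10, Rpl17, Rpl37 and Rpl41 when the cluster with Elane was left out. Rps9, whose protein lines the path by which messenger RNA enters the small subunit, stood at 1480, 1436 and 1371 CPM in immature and 3728, 3378 and 3309 CPM in mature neutrophil-like cells. Rps27 stood at 501, 436 and 433 against 970, 730 and 834 CPM. The mature libraries were all above the immature ones. Median depth was 17309 to 18554 UMIs in immature and 3847 to 4158 UMIs in mature cells, and its part in these differences was not tested.

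**Figure D2:**
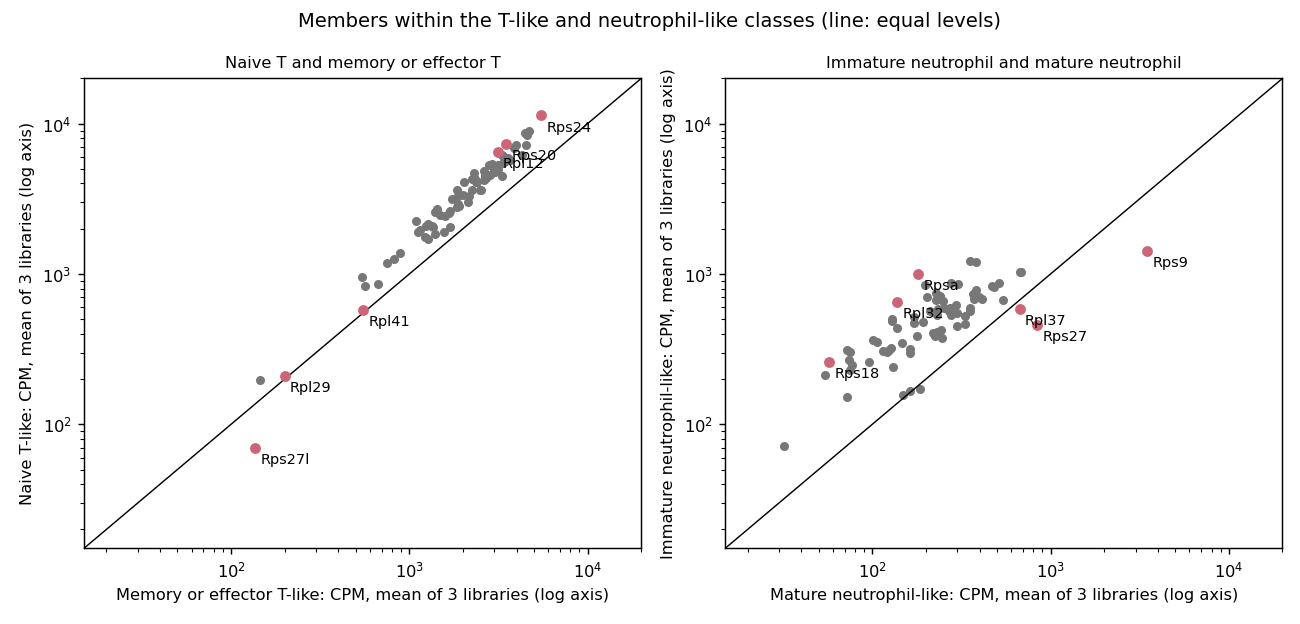
CPM of each member tested in memory or effector against naive T-like cells (left) and in mature against immature neutrophil-like cells (right), as means of 3 libraries on log axes, with the line of equal levels. Members lie above the line on both sides, except for Rps27l on the left and Rps9, Rps27, Rpl37 and Rpl17 on the right, of which the last 2 overlapped between the subsets.

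Red cell precursors and myeloid cells showed a similar range. Early erythroid-like cells (Car1, Klf1) gave 23.0%, 20.8% and 22.1% of UMIs to members. The late erythroid-like cluster (Slc4a1, Alas2), in which haemoglobin RNA accumulates, gave 4.29% in the MASH library, from 431 cells, and 8.17% and 8.43% in Chow and Phe-free, from 12 and 46 cells. Without mitochondrial, haemoglobin and immunoglobulin UMIs in the total it was 11.8% in MASH and 16.4% and 14.2% in the others. Among monocyte-like clusters the share was 14.3%, 14.7% and 16.8% in the cluster with Mpo and Elane, genes of granule-forming precursors. It was 12.1%, 11.3% and 11.8% in the cluster with Ly6c2 and Ccr2, the classical monocyte genes, and 9.86%, 9.88% and 9.65% in the cluster with Ace and Adgre4, genes of patrolling monocytes. Among dendritic-like clusters it was highest in that with Xcr1 and Clec9a, genes of cross-presenting dendritic cells, at 21.8%, 19.6% and 21.1%. A cluster led by genes of more than 1 dendritic type, among them the plasmacytoid gene Siglech, Cd209a and Clec9a, had 13.97%, 13.6% and 14.6%. The cluster with Fscn1, a gene of migrating dendritic cells, had 15.01%, 12.6% and 13.6%. Relative to the median cell of its library, median depth was 0.351 in the Xcr1, 2.31 in the Siglech and 0.259 in the Fscn1 cluster. Among the large macrophage-like clusters, all libraries together, the share was 4.41% in the cluster led by Mertk and Dgki. It was 10.01% in that led by Vcam1 and C1qb and 13.3% in that led by C1qb and C1qa. Their relative median depths were 1.77, 0.230 and 0.113 in this order. The part of depth in these shares was not tested.

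Each class was then compared with the mean of the other 9 over 30 sums of cells, 1 per class and library, with library as a block (edgeR's quasi-likelihood test, Benjamini-Hochberg adjusted p under 0.05). Nothing in the labels says that the libraries come from separate animals in equal number, so these p-values measure the spread between these libraries only. Of the 80 members, 78 passed the filter on low counts. Rpl3l, among them, passed through the few classes in which it was present. All 78 differed between classes, as did 99.8% of 15328 genes, so the size and balance of the differences carry the description.

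In T-like cells 75 members were higher and 1 lower, against 50.7% and 14.5% of all genes, and the median member stood 1.03 log2 above the other classes, against 0.34 for the median gene. In B-like cells 75 were higher and 1 lower, against 50.2% and 16.4%, with medians of 0.82 and 0.34. In erythroid-like cells 73 were higher and 1 lower, against 36.1% and 36.3%, with medians of 0.95 and -0.25. In neutrophil-like cells 77 were lower and 1, Rpl3l, higher, against 52.1% and 23.4%, with medians of -2.11 and -0.82. In macrophage-like cells 57 were lower and 5 higher, against 18.4% and 37.7%, with medians of -0.48 and 0.16. These directions were the same with TMM or DESeq2 scaling in place of total UMIs.

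The counts in the other classes depended on the scaling, and in plasma-, NK- and monocyte-like cells, and in megakaryocyte-like cells with TMM, so did the direction. In dendritic-like cells 67 members were higher and 0 lower, against 41.4% and 8.98%. With TMM 6 of 78 were higher and 3 lower, where 4011 and 3459 of 15328 genes were. With DESeq2 46 of 79 were higher and 3 lower, where 4661 and 3187 of 26304 genes were. In plasma-like cells 76 were lower and 1 higher, against 67.3% and 9.32%, with a median of -1.23 against -1.42 for all genes. There TMM gave 13 higher and 6 lower, where 4087 and 4133 of 15328 genes were. DESeq2 gave 39 higher and 8 lower of 79, where 4961 and 3852 of 26304 genes were. In NK-like cells 26 were higher and 3 lower, against 51.7% and 11.6%, with medians of 0.12 and 0.46. With TMM 0 were higher and 59 lower, where 3883 and 3509 of 15328 genes were. With DESeq2 0 of 79 were higher and 72 lower, where 3848 and 4403 of 26304 genes were. In monocyte-like cells 15 were higher and 5 lower, against 43.5% and 13.7%. There TMM gave 5 higher and 16 lower, where 5104 and 3041 of 15328 genes were. DESeq2 gave 5 higher and 48 lower of 79, where 4835 and 4441 of 26304 genes were. In megakaryocyte-like cells, the mixed class, 57 were higher and 1 lower, against 18.8% and 4.83%. With TMM 4 were higher and 8 lower, where 1940 and 2528 of 15328 genes were. With DESeq2 47 of 79 were higher and 3 lower, where 2862 and 1197 of 26304 genes were. With cells assigned one by one from their markers 0 were higher and 72 lower, where 2164 and 801 of 15150 genes were. At the coarser clustering 39 of 79 were lower in plasma-like cells and 11 higher in NK-like cells, where 9876 and 7664 of 15616 genes were. TMM moved the median of all genes by 1.29 log2 in plasma-like and 0.61 in neutrophil-like cells, and by -0.49 in NK-like cells. Without the Phe-free library the higher counts were 10 in NK-like and 6 in monocyte-like cells, and without the Chow library 13 in NK-like cells, while the lower count fell to 1 in NK-like cells without Chow, and to 3 and 2 in monocyte-like cells without Chow and without Phe-free. In megakaryocyte-like cells 28 were higher without the MASH library and 30 without the Phe-free library, and in macrophage-like cells 3 were higher without any 1 library. The counts over all genes in these runs are given below, with the results that depend on the processing.

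Most members moved together. A member's log2 difference lay within 0.25 of the members' median of the class in 554 of 780 pairs of member and class (71.0%). The steadiest were Rpl11, a partner of the 5S ribosomal RNA, with an SD of 0.08 log2 over classes, Rpl32 (0.11) and Rpl6 (0.11). Rpl3l, Rps27l, Rps9, Rps2 and Rps27 left the median by more than 1 log2 in some class. A scaling factor moves all members of a class alike, so this balance does not depend on it. Small-subunit members gave 49.2% ± 0.837 of member UMIs in neutrophil-like cells, 46.4% ± 0.305 in T-like cells and 42.3% ± 0.172 in erythroid-like cells (SD, n = 3 libraries).

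Among large-subunit members other than the paralog Rpl3l, Rpl10 and Rpl12 shifted most. Rpl12 stood at 4991, 4595 and 4690 CPM in T-like, 3880, 3702 and 3936 in B-like, 644, 507 and 691 in plasma-like and 310, 196 and 240 CPM in neutrophil-like cells. It was 1.82 ± 0.09 log2 higher in T-like cells than in the other classes (± SE, adjusted p = 4.49e-15, edgeR) and lower in neutrophil-like cells (-2.93 ± 0.13, adjusted p = 7.12e-16). Rpl10, an X-linked protein needed for the joining of the subunits, ran the other way. It stood at 679, 731 and 683 CPM in T-like and 632, 704 and 661 CPM in B-like cells, and at 988, 894 and 965 in dendritic-like and 1313, 988 and 1272 CPM in erythroid-like cells. T-like and B-like libraries were thus below every erythroid-like library for Rpl10, while they were above every one of them for Rpl12.

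Rpl14 and Rpl41 led in erythroid-like cells. Rpl14 stood at 3494, 2540 and 3218 CPM there and at 2084, 2008 and 2046 CPM in T-like cells, with a difference of 1.73 ± 0.08 log2 from the other classes (adjusted p = 1.63e-15). Rpl41 stood at 1358, 1190 and 1575 CPM in erythroid-like cells and at no more than 592 CPM in any T-like library (1.71 ± 0.07, adjusted p = 8.22e-17). The stalk protein gene Rplp0 stood at 6072, 4852 and 5980 CPM in erythroid-like and at 1148, 1144 and 1101 CPM in macrophage-like cells, where it was the member farthest below the median (-1.15 ± 0.11, adjusted p = 1.50e-09). In neutrophil-like cells Rpl3, a core protein near the peptidyl transferase centre, and Rpl10a joined Rpl12 as lowest: Rpl3 stood at 171, 132 and 161 CPM there and at 1712, 1651 and 1717 CPM in T-like cells.

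Among small-subunit members other than the paralog Rps27l, Rps9, Rps2 and Rps27 shifted most. Rps9 stood at 1920, 2589 and 1732 CPM in neutrophil-like cells, the class in which it was the least reduced of the members other than Rpl3l (-0.39 ± 0.11, adjusted p = 0.00191), though its value was 0.19 with TMM. In plasma-like cells it was the most reduced, at 923, 748 and 965 CPM (-1.77 ± 0.12, adjusted p = 2.02e-12). The neutrophil-like and plasma-like libraries did not overlap for Rps9. Rps27 stood at 4065, 4125 and 3871 CPM in T-like and 3778, 3739 and 3739 CPM in B-like cells, and at 1493, 1237 and 1342 CPM in erythroid-like cells. In the latter it was the 1 member that fell (-0.24 ± 0.09, adjusted p = 0.0185), with a value of -0.13 under TMM (adjusted p = 0.193), and no member fell in this class when any 1 library was left out. Rps2, another protein of the messenger RNA entry path, stood at 261, 246 and 244 CPM in macrophage-like cells, against 152, 163 and 151 CPM in B-like and 169, 176 and 166 CPM in T-like cells (1.20 ± 0.09 in macrophage-like cells, adjusted p = 1.09e-11).

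Rps27a, made as a fusion with ubiquitin, was among the least reduced in neutrophil-like cells (946, 715 and 997 CPM). In NK-like cells Rpl13a, Rpl27 and Rpl36 stood highest against the members' median and Rps19, Rps20 and Rps9 lowest. In monocyte-like cells Rpl12, Rplp1 and Rps27 stood lowest. Rps2, Rpl29, Rpl41, Rpl9, Rps26 and Rpl10 had the fewest UMIs of the broadly expressed members. Ribosomal protein genes have many near-identical processed copies in the genome, and how the counting treated reads that match several is not given in the sources used here, so their levels are uncertain.

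**Figure D3:**
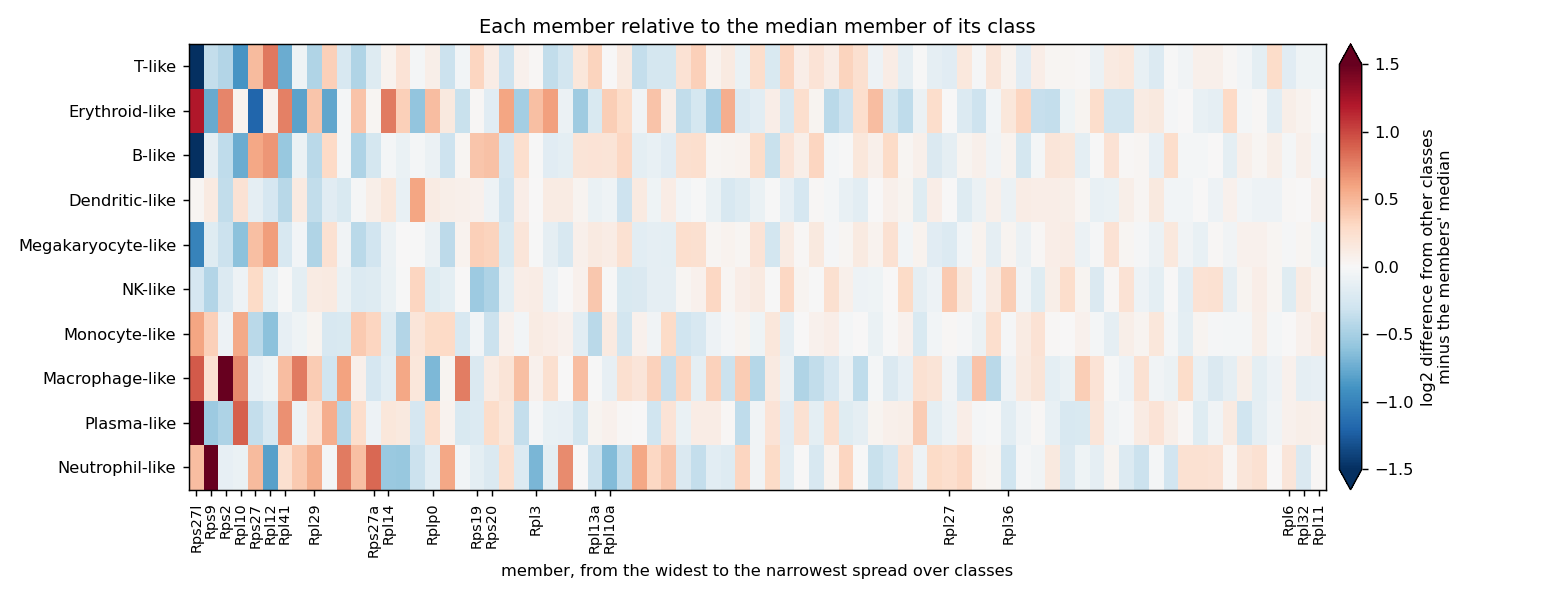
Log2 difference of each member from the other classes, minus the members' median of the class (colour, from -1.5 to 1.5), for 10 classes (rows) and 77 members (columns, from the widest to the narrowest spread, without Rpl3l, with some of them labelled). Columns at the right, ending with Rpl11, stay near 0 in every class, while Rps27l, Rps9, Rps2, Rpl10, Rps27 and Rpl12 at the left change sign between classes.

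The paralogs followed patterns of their own. Rps27l stood at 581, 529 and 682 CPM in erythroid-like cells, 199, 233 and 285 in monocyte-like, 174, 228 and 215 in dendritic-like and 194, 208 and 213 CPM in macrophage-like cells. It stood lower in T-like (93.5, 106 and 114), B-like (74.0, 83.6 and 87.9) and neutrophil-like cells (56.3, 46.7 and 64.2). Every erythroid-like library was above every library of any other class. The difference was 2.15 ± 0.09 log2 in erythroid-like cells (adjusted p = 1.23e-16) and -1.03 ± 0.12 in B-like cells (adjusted p = 3.42e-08). Against the other members, Rps27l stood highest in plasma-like cells, 1.59 log2 above their median, at 170, 196 and 221 CPM. Its partner Rps27 was low against the other members in erythroid-like cells, where Rps27l was high. In B-like and T-like cells Rps27 was high and Rps27l low. The pairing is given for these classes only, and not for plasma-like cells.

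Rpl3l, the muscle paralog of Rpl3, had 907 UMIs in all. Of these, 62.1% were in neutrophil-like and 33.2% in monocyte-like cells. Mature neutrophil-like cells held 35.9, 43.9 and 52.9 CPM and immature ones 3.50, 2.17 and 3.74 CPM, so the libraries of the subsets did not overlap. A UMI was found in 11.9%, 14.9% and 16.1% of mature neutrophil-like cells. Among monocyte-like clusters, the one with Ace and Adgre4 (cluster 31) held 26.7, 39.4 and 41.1 CPM, that with Ly6c2 and Ccr2 (cluster 20) 4.31, 4.79 and 5.07 CPM, and that with Mpo and Elane (cluster 14) 1.40, 0 and 0.498 CPM.

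No Rpl3l UMI was found in T-like cells, where 0 of 8564 cells allow a share of up to 0.0350% of cells with a UMI. Against the 3 UMIs over the group that a count of 0 allows, Rpl3l was at least 1229-fold higher in mature neutrophil-like than in T-like cells, counting error only. T-like cells are deeper, at medians of 8250 to 9022 UMIs against 3847 to 4158. The paralog did not follow Rpl3, which was lowest in neutrophil-like cells. Rpl39l had 188 UMIs in all and Rpl10l 0, and neither was tested.

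**Figure D4:**
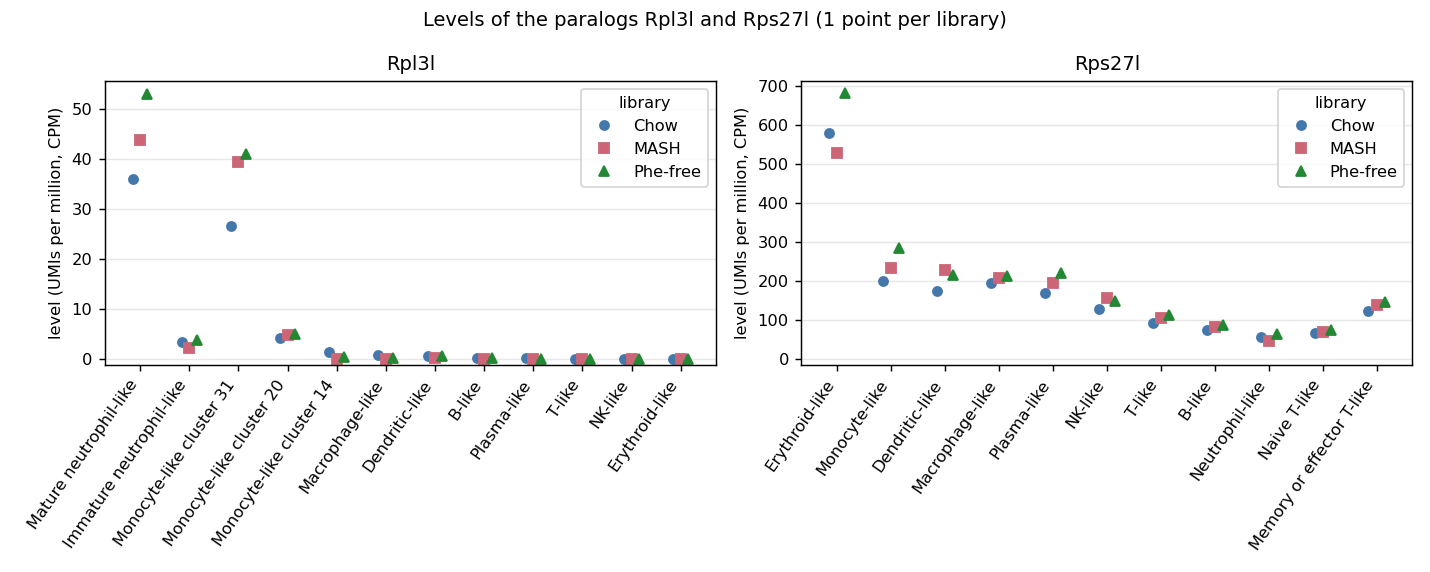
Levels of Rpl3l (left) and Rps27l (right) in CPM (vertical axes) by class, subset or cluster (horizontal axes), with 1 point per library. Rpl3l stands at 35.9 to 52.9 CPM in mature neutrophil-like cells and 26.7 to 41.1 CPM in monocyte-like cluster 31, and Rps27l is highest in erythroid-like cells at 529 to 682 CPM.

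Genes that act with the ribosomal proteins were read from lists. Of 8 ribosomal proteins outside the name rule, such as Fau and Rack1, 7 were higher and 0 lower in B-like and in T-like cells, and 8 were lower in neutrophil-like cells. Of 17 other TOP genes, among them elongation factors, 17 were higher in B-like, 16 in T-like and 16 in erythroid-like cells. All 17 were lower in neutrophil-like cells. The medians were 0.68, 0.83, 1.05 and -2.29 log2 in this order. Of all genes 50.2%, 50.7% and 36.1% were higher in the first 3 classes and 52.1% lower in the last. Of 28 genes of ribosome biogenesis, among them nucleolar factors that process ribosomal RNA, 28 were higher in erythroid-like cells (median 1.97). All 28 were lower in neutrophil-like cells (median -2.80). The members' medians in these classes were 0.95 and -2.11. Nhp2, a protein of box H/ACA particles, stood at 329, 238 and 371 CPM in erythroid-like, 69.3, 77.1 and 76.2 CPM in T-like and 11.9, 15.7 and 14.1 CPM in neutrophil-like cells. With TMM or DESeq2 scaling the medians of these 3 lists kept their sign in B-, T-, erythroid- and neutrophil-like cells, at counts of at least 10 of 17 TOP and 18 of 28 biogenesis genes in the direction given. Rpl36al, a paralog of Rpl36a, was the 1 gene of 8 outside the name rule that was higher in plasma-like cells, where 4 were with DESeq2 (792, 738 and 860 CPM, against 644, 698 and 733 CPM in T-like cells).

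The 13 genes of mTORC1 and LARP1 control ran differently by class. In plasma-like cells 13 were lower, where 67.3% of genes were. With TMM 2 were lower there and 3 higher, and with DESeq2 2 lower and 4 higher. Erythroid-like cells had 10 higher and 1 lower, against 36.1% and 36.3% of genes. Macrophage-like cells had 9 higher and 0 lower, against 37.7% and 18.4%. B-like and T-like cells each had 7 higher and 3 lower, against 50.2% and 16.4%, and 50.7% and 14.5%. This depended on the scaling. TMM gave 6 higher and 4 lower in B-like and 5 and 5 in T-like cells, where 6472 and 3099, and 5820 and 3050 of 15328 genes were. DESeq2 gave 4 and 6, and 3 and 6, where 4994 and 6368, and 4636 and 5495 of 26304 genes were. In erythroid- and macrophage-like cells more of the list were higher than lower with both scalings. In neutrophil-like cells 10 were lower and 2 higher, namely Sesn2 and Eif4ebp1, an inhibitor of the cap-binding protein Eif4e, against 9 lower and 3 higher with TMM and 6 lower and 4 higher with DESeq2. Of all genes, 52.1% were lower and 23.4% higher in this class. Eif4ebp1 stood at 138, 206 and 142 CPM there, at 263, 186 and 230 CPM in erythroid-like and at 12.8, 12.5 and 11.97 CPM in T-like cells. Ddit4, which restrains mTORC1, stood at 333, 201 and 199 CPM in T-like cells and at 10.5, 8.80 and 5.82 CPM in neutrophil-like cells.

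Between libraries, and leaving aside the mixed megakaryocyte-like class, the T-like share of member UMIs differed least and the erythroid-, neutrophil- and plasma-like shares most. Ratios below are of shares, with 95% intervals that cover counting error only, and the comparisons share libraries: MASH enters both MASH over Chow and Phe-free over MASH. The limit of size for a member was a level higher by 25% or lower by 20%, that is, the same fold in both directions. The MASH over Chow ratio was 0.996 [0.995–0.997] in T-like and 1.03 [1.03–1.03] in B-like cells. The Phe-free over MASH ratio was 1.01 [1.01–1.01] and 1.04 [1.04–1.04]. Of 77 members tested in each of these classes, 0 passed the limit in either comparison. For MASH over Chow 1.95% of genes were higher and 2.50% lower in T-like cells, and 2.15% and 3.19% in B-like cells. In the Phe-free to MASH comparison these were 0.524% and 0.611%, and 0.663% and 1.01%. Few genes of any kind thus passed the limit in these classes.

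Erythroid-like shares of 22.7%, 18.1% and 21.98% gave ratios of 0.79995 [0.798–0.802] and 1.21 [1.21–1.21]. For MASH over Chow 37 of 77 members were lower past the limit and 0 higher, where 32.4% of genes were lower and 9.12% higher, and the median member stood at -0.32 log2 against -0.21 for all genes. Rpl32 stood at 4349 CPM in the Chow and 3118 CPM in the MASH library (0.717 [0.705–0.729]), and Rps27l at 581 and 529 CPM (0.909 [0.870–0.951]). For Phe-free over MASH 18 of 77 members were higher and 0 lower, where 31.5% of genes were higher and 6.80% lower, led by Rpl17 (837 to 1135 CPM) and Rpl41 (1190 to 1575 CPM). The late cluster, low in members, held 12 Chow, 431 MASH and 46 Phe-free cells, and in early erythroid-like cells alone the shares were 23.0%, 20.8% and 22.1%. With the clusters of at least 20 cells in each library weighted alike, 0 members passed the limit in either comparison. In the class sums, without weighting of clusters, all 23 biogenesis genes tested were lower in MASH past the limit. There 21 of 22 were higher in Phe-free than in MASH. The part of the late cluster in these counts was not tested. Ncl, nucleolin, stood at 1779, 1106 and 1769 CPM.

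Neutrophil-like cells gave 3.77%, 2.85% and 3.55%, ratios of 0.755 [0.751–0.759] and 1.246 [1.240–1.253]. For MASH over Chow 62 of 76 members were lower and 1 higher, where 24.2% of genes were lower and 37.0% higher. Against MASH, 50 of 75 were higher in Phe-free and 1 lower, where 22.5% of genes were higher and 44.5% lower. The median member stood at -0.48 and 0.40 log2, against 0.11 and -0.21 for all genes. In the order of libraries used throughout, Rpl4 stood at 246, 141 and 231 CPM. Rps9 ran the other way, at 1920, 2589 and 1732 CPM, as did Rpl3l at 9.86, 26.9 and 12.9 CPM. Immature cells, which are high in members and low in these 2 genes, numbered 512, 104 and 921 in this order, and mature cells 615, 798 and 1021. With the clusters of the class weighted alike in both libraries, the log2 ratio of Phe-free to MASH shares became -0.11, from 0.32, and 0 members were higher and 4 lower. That of MASH to Chow became -0.11, from -0.41, with 0 members past the limit. Among immature cells the share was 4.10%, 4.24% and 3.84%, and among mature cells 2.45%, 1.90% and 2.28%.

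Plasma-like cells gave 5.72%, 4.88% and 6.20%, ratios of 0.853 [0.849–0.857] and 1.27 [1.26–1.28]. In Phe-free against MASH, 47 of 76 members were higher past the limit and 0 lower, where 22.4% of genes were higher and 8.47% lower, with medians of 0.34 log2 for members and 0.10 for all genes. With the clusters weighted alike 7 members were higher. Rps26 stood at 276 CPM in Phe-free and 183 CPM in MASH, a ratio of 1.51 [1.41–1.62], Rpl28 at 1209 and 831 CPM (1.46 [1.41–1.51]) and Rpsa at 1326 and 918 CPM (1.45 [1.40–1.49]). Of 15 other TOP genes tested in the class sums, without weighting of clusters, 11 were higher. In MASH against Chow, 4 of 76 members were lower and 0 higher, where 18.7% of genes were lower and 7.87% higher, and 1 was lower with the clusters weighted alike. In cells under 7868 UMIs the shares were 5.83%, 6.14% and 6.005% in Chow, MASH and Phe-free, and in cells above 32891 UMIs 5.82%, 4.67% and 6.35%. At the coarser clustering, where the plasma-like share averaged 11.03%, the log2 ratios changed sign, to 0.33 for MASH to Chow and -0.39 for Phe-free to MASH. That class was 1 cluster of 2896 cells, 725, 1337 and 834 in the same order, against 278, 254 and 359 in the main run. Most of its cells were thus not plasma-like in the main run. Its median depth was 0.478 relative to the median cell of the library, against 3.31 in the main plasma-like cluster.

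NK-like cells gave 12.9%, 11.98% and 14.4%, ratios of 0.932 [0.929–0.935] and 1.20 [1.20–1.21]. For Phe-free over MASH 17 of 77 members were higher past the limit and 0 lower, where 2.86% of genes were higher and 5.47% lower. For MASH over Chow 0 were higher and 1 lower, where 4.95% of genes were higher and 6.64% lower. The median member stood, for Phe-free over MASH, at 0.25 log2 against -0.04 for all genes. The weighting took only clusters of at least 20 cells in each library, which left the 1 large NK-like cluster. In it 19 members were higher, and no mix of clusters was evened out. With cells assigned one by one from their markers 25 were higher. Rpl12 led, at 1248 CPM in MASH and 1768 CPM in Phe-free, a ratio of 1.42 [1.37–1.47], followed by Rpl28 (1.36 [1.32–1.40]) and Rps19 (1.35 [1.30–1.41]). Rps27l, at 155 and 148 CPM, did not follow (0.955 [0.854–1.07]). Nearly all NK-like cells lay in 1 cluster, and the Phe-free share was above the MASH share at each depth when all cells of the class were parted evenly by depth: 10.6% and 8.92% in the shallowest, 12.3% and 10.3% in the middle and 16.8% and 13.8% in the deepest. Chow lay between at 9.04%, 11.3% and 15.5%. The part of depth and of the mix of cells in these differences was not tested.

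In monocyte-like cells the shares of 12.3%, 11.5% and 13.6% gave ratios of 0.940 [0.938–0.942] and 1.18 [1.17–1.18]. For Phe-free over MASH 18 of 77 members were higher and 0 lower, where 11.4% of genes were higher and 12.4% lower, led by Rpl14 (850 to 1170 CPM) and Rps12 (1934 to 2625 CPM), with medians of 0.21 log2 for members and -0.04 for all genes. The cluster with Mpo and Elane, the highest in members, held 77 Chow, 36 MASH and 220 Phe-free cells, and 0 members were higher with the clusters weighted alike or with cells assigned one by one. For MASH over Chow 0 members passed the limit, where 6.90% of genes were higher and 8.53% lower. In the cluster with Ly6c2 and Ccr2 the shares were 12.1%, 11.3% and 11.8%. Of 10 biogenesis genes tested in the class sums, without weighting of clusters, 8 were higher in Phe-free, Nop58 at 85.9 CPM against 41.3 CPM. Ddit4 stood at 215, 68.2 and 41.7 CPM in this class. Dendritic-like shares gave ratios of 0.922 [0.919–0.924] and 1.04 [1.04–1.04], and macrophage-like shares 1.01 [1.01–1.01] and 0.912 [0.908–0.915]. In MASH against Chow, 1 dendritic-like member was higher and 0 lower, where 6.24% and 3.76% of genes were, and 0 macrophage-like members passed, where 9.87% and 16.4% of genes did. In Phe-free against MASH, 0 dendritic-like members passed, where 5.16% of genes were higher and 7.16% lower, and 1 macrophage-like member was lower and 0 higher, where 4.75% and 5.93% of genes were.

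In the mixed megakaryocyte-like class the direction turned on how cells were assigned. Its share ratios were 1.264 [1.2501–1.278] for MASH to Chow and 0.884 [0.877–0.892] for Phe-free to MASH. Of 76 members 43 were higher and 0 lower in MASH than in Chow, where 36.7% of genes were higher and 26.0% lower, but 0 of 72 were higher and 68 lower with cells assigned one by one. In Phe-free against MASH, 1 of 77 was higher and 6 lower, where 10.8% and 26.9% of genes were, but 67 of 70 were higher and 0 lower with cells assigned one by one.

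Some members are given here by their direction over classes, to be read beside the direction of the share of all members. Rps27l was higher in Phe-free than in Chow in 10 of 10 classes, by a median of 0.27 log2, and higher in MASH than in Chow in 7 of 9 classes, by 0.18. Rpl41 was higher in Phe-free than in Chow in 9 of 10 classes (median 0.19). Rpl12 and Rps4x were each lower in MASH than in Chow in 9 of 10 classes, with medians of -0.17 and -0.19. For Phe-free over MASH, Rpl28 (median 0.25) and Rpsa (0.23) were higher in 8 of 10 classes, while Rps29 was higher in 4 and lower in 6. The share of all members was itself higher for Phe-free over MASH in all classes but macrophage- and megakaryocyte-like cells. It was lower in MASH than in Chow in all but B-, macrophage- and megakaryocyte-like cells. Against Chow, the Phe-free share was lower in dendritic-, macrophage-, neutrophil- and erythroid-like cells and higher in the others. The classes of a library share its free RNA and depth, so they are not independent.

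**Figure D5:**
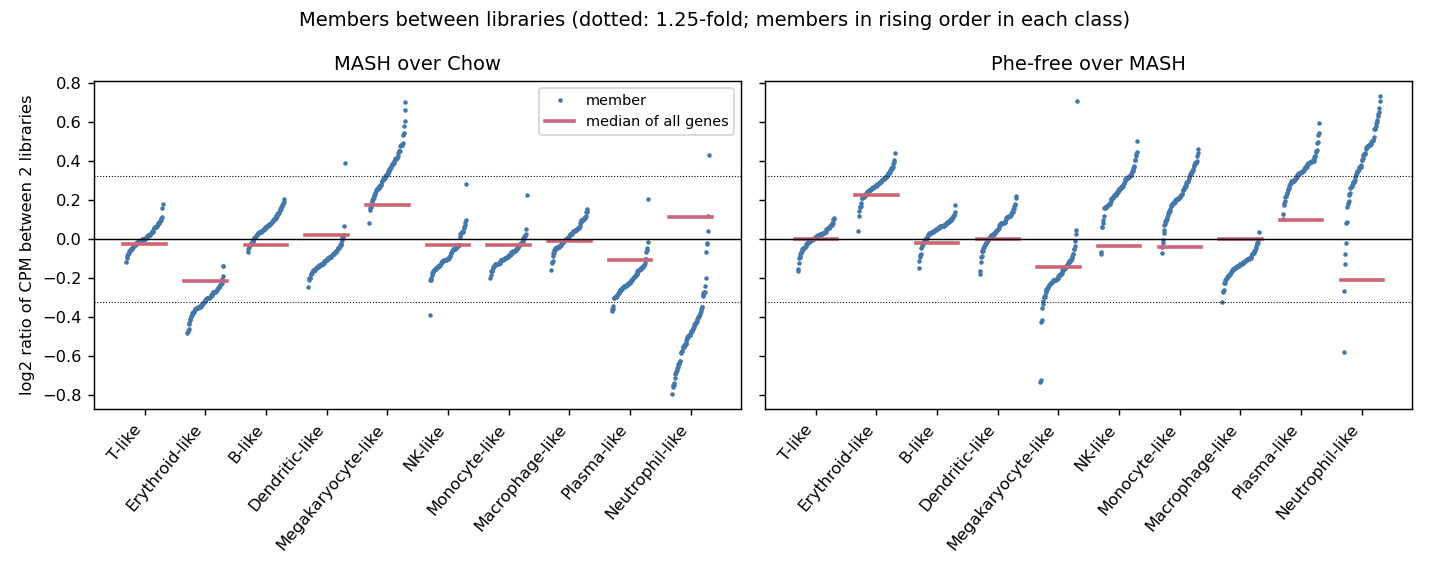
Log2 ratio of CPM (vertical axes) of each member tested for MASH over Chow (left) and Phe-free over MASH (right) by class (horizontal axes), members in rising order within a class. Red bars are the median of all genes tested and dotted lines mark the limit of size: T-like and B-like members lie within the dotted lines, and most neutrophil-like members lie below the lower line on the left and above the upper line on the right.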

How the data were processed

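Per the file headers and the submitters' processing notes, the authors deposited UMI counts, whole numbers for each gene in each barcode, made with Cell Ranger 9.0.1, with GRCm39 (mm39) named as the build. Seurat 5.3.0 is named there too, with no role. The libraries were 10x 5′ libraries, per the labels' protocols. Other deposited columns hold gene identifiers, symbols and barcodes and carry no measurement.

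Barcodes under 300 genes, under 500 UMIs or over 10% mitochondrial UMIs were dropped, leaving 15984, 17651 and 15864 in the order Chow, MASH, Phe-free, and Scrublet removed 315, 318 and 304 as doublets. Cells of all libraries were clustered together with scanpy 1.11.5 (counts scaled to 10000, 2000 variable genes without ribosomal protein, immunoglobulin, T cell receptor, haemoglobin and mitochondrial genes, 30 components, 15 neighbours, resolution 1.0), giving 38 clusters, some divided again. A cluster took the name whose 5 leading markers had a mean log2 fold of at least 1.5, with a lead of 1 over the next class and at least 3 markers over 2-fold. These thresholds were set after seeing the clusters. Unnamed clusters held 495, 545 and 386 cells.

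Counts were summed per class and library, with a class needing 50 cells in a library. Classes were compared with edgeR 4.0.16 (R 4.3.3), quasi-likelihood test, total UMIs as library size, library as block, filterByExpr, and Benjamini-Hochberg adjustment over 15328 genes. On simulated counts for the NK-like comparison (14012 genes), 99.5% of 200 genes changed 2-fold were recovered, with 15 false calls. DESeq2 1.42.0 and TMM were alternatives. Between libraries a member needed a mean of 50 CPM and 100 UMIs. Subsets were compared by whether 3 libraries overlapped. Intervals are exact or conditional Poisson at 95%. The named members were the 3 highest and the 3 lowest of a class against the members' median among those with an adjusted p under 0.05, the 3 and 3 with the most extreme ratios between libraries, the 5 and 5 with the most extreme medians over classes, and each listed paralog. Members named for subsets, and the levels of genes in other classes, were chosen after their values were seen. The members, lists, markers and tests were chosen with earlier results of these data known. Some genes that these rules name are not reported here.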

Additional observations from a re-analysis of the deposited data

How the results depend on the processing

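T-, erythroid- and B-like cells had the highest shares and neutrophil-like cells the lowest in each alternative run for the class shares. Of 89 alternative class shares, 71 moved by less than the SD over libraries. Without mitochondrial, haemoglobin and immunoglobulin UMIs the mean share was 21.6% in B-, 15.6% in plasma- and 24.01% in T-like cells. At resolution 0.5 it was 11.03% in plasma- and 23.9% in T-like cells, but most cells of that plasma-like class were not plasma-like in the main run. The median over cells was 4.58% in plasma-, 23.8% in T-, 11.2% in NK-, 16.3% in dendritic-, 11.2% in monocyte-, 10.5% in macrophage-, 1.91% in neutrophil- and 6.19% in megakaryocyte-like cells. A stricter cell filter, which left the megakaryocyte-like class too small, gave 23.6% in T- and 8.39% in macrophage-like cells, cells assigned one by one gave 23.6% in T- and 6.77% in megakaryocyte-like cells, and keeping doublets gave 3.92% in neutrophil-like cells.

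Counts of members between classes moved as follows. For the classes that depended on the scaling, the counts over all genes under TMM and DESeq2 are given above. TMM gave 13 higher and 6 lower in plasma-, 0 higher and 59 lower in NK-, 6 higher and 3 lower in dendritic-, 5 higher and 16 lower in monocyte- and 4 higher and 8 lower in megakaryocyte-like cells, 1 higher in macrophage- and 0 lower in erythroid-like cells. Of 15328 genes, 4379 were higher in macrophage- and 5212 lower in erythroid-like cells with TMM. DESeq2 gave 4 lower in B- and in T-like cells, 39 higher and 8 lower in plasma-, 0 higher and 72 lower in NK-, 5 higher and 48 lower in monocyte-like cells, 3 lower in dendritic- and megakaryocyte-, 2 lower in erythroid- and 2 higher in neutrophil-like cells. Of 26304 genes, 6368 were lower in B-, 5495 in T- and 7235 in erythroid-like cells with DESeq2, and 6423 were higher in neutrophil-like cells. Without a filter on low counts 17 were higher in NK-like cells, where 8180 of 26304 genes were. Resolution 0.5 gave 0 higher and 39 lower in plasma-like cells, 11 higher in NK-, 2 lower in monocyte-, 3 higher in macrophage- and 25 higher in megakaryocyte-like cells. Of 15616 genes, in this order, 1489 were higher and 9876 lower, 7664 higher, 1407 lower, 5469 higher and 2475 higher. Cells assigned one by one gave 2 lower in T-, 0 lower in NK-, 2 lower in monocyte-, 0 lower in erythroid-, and 0 higher and 72 lower in megakaryocyte-like cells. Of 15150 genes, in this order, 2014, 1576, 1709 and 4682 were lower, and 2164 were higher and 801 lower. Leaving out the megakaryocyte-like class, an alternative chosen after seeing the data, gave 24 higher in monocyte- and 0 lower in erythroid-like cells. Of 15498 genes, 7056 were higher in the former and 5926 lower in the latter. Leaving out 1 library gave 10 to 25 higher and 1 to 3 lower in NK-, 6 to 18 higher and 2 to 4 lower in monocyte-, 3 higher in macrophage-, 0 lower in erythroid-, and 28 to 54 higher and 1 to 2 lower in megakaryocyte-like cells. Of 15256 to 15757 genes, 6946 to 7480 were higher and 1370 to 1442 lower in NK-like cells. In monocyte-like cells 5217 to 6765 were higher and 1571 to 1648 lower. In macrophage-like cells 4907 to 5646 were higher, and in erythroid-like cells 4618 to 5156 lower. In megakaryocyte-like cells 2027 to 2565 were higher and 287 to 689 lower.

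Of 237 alternative share ratios between libraries, 219 kept their sign. A change of sign counted as reversed where the shares first differed by at least 1.1-fold, which 6 did, while the rest were of smaller ratios, such as that of plasma-like cells for Phe-free over Chow (from 0.12 to -0.055 at resolution 0.5). On the log2 scale the 6 were plasma-like cells at resolution 0.5 (0.33 in MASH to Chow and -0.39 in Phe-free to MASH), megakaryocyte-like cells assigned one by one (-0.91 and 0.92) and at middle depth (-0.062 for Phe-free over Chow), and neutrophil-like cells with clusters weighted alike (-0.11 for Phe-free over MASH). Cells assigned one by one left 1 class with a higher share in MASH than in Chow. Pairs of member and class past the limit, higher then lower, were 3 and 18 for MASH over Chow at a fold of 1.5, 11 and 5 as shares of member UMIs, and 3 and 166 with cells assigned one by one, with 2 higher under the stricter filter and 2 lower with clusters weighted alike. For Phe-free to MASH they were 11 and 2 at a fold of 1.5, with 5 higher as shares of member UMIs, 27 higher with clusters weighted alike, 2 lower under the stricter filter and 1 lower with cells assigned one by one. For Phe-free over Chow they were 1 and 0 at a fold of 1.5 and 11 and 7 with clusters weighted alike, with 5 higher as shares of member UMIs, and 2 lower under each of the lower minimum of 10 CPM and 20 UMIs, the stricter filter and cells assigned one by one. Genes of any kind past the limit were counted in the main run only. The member counts between libraries under the alternatives, here and above, thus have no share over all genes beside them. Beyond what each alternative changes by construction, the cause was not tested.

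No paired analysis was possible because each group holds 1 library, so the groups share fewer than 2 replicate numbers. With 1 library per group, diet, treatment, animal and library preparation cannot be told apart. Rpl39l and Rpl10l were too rare to compare at this depth.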

Other observations

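Small classes left out of the comparisons also held ribosomal protein RNA. Basophil-like cells, 34 to 46 per library, gave 14.03%, 12.3% and 13.1% of UMIs to members in the order Chow, MASH, Phe-free. Stroma-like cells, 20 to 25 per library, gave 7.52%, 9.21% and 15.7%, and unnamed cells 18.1%, 18.6% and 17.7%.

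A cluster of 538 cells was led by Ctrb1, Try5 and Prss2, which encode digestive enzymes of the exocrine pancreas, and 503 of its cells came from Chow, 15 from MASH and 20 from Phe-free. Its cells gave 19.4% of UMIs to members. A part of it that also carried B cell genes, 255 cells of which 240 were from Chow, was counted as B-like, at 19.3%.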
